A study of Mus musculus with 12 samples.

Results

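Chemokine ligands are small secreted or membrane-bound proteins that guide leukocytes along a gradient, and 10 of them were followed by RNA-seq in mouse mesangial cells (MMC), the contractile cells between the capillaries of the glomerulus. They were picked by a rule that uses gene symbols alone, and make up 10 of the 25230 genes in the count files. The choice of these ligands was made with earlier results of these data known. The ligands are the CC chemokines Ccl2, Ccl7 and Ccl5, the neutrophil attractants Cxcl1 and Cxcl5, the Cxcr3 ligands Cxcl9 and Cxcl10, the stromal chemokine Cxcl12, and Cxcl16 and Cx3cl1, which are made as membrane proteins.

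The cells were wild-type (WT) or came from the lncMGC-KO5 line (KO), made from C57BL/6J embryos with Cas9 and a pair of guides on either side of the transcription start site of lncMGC, a long non-coding RNA that hosts a microRNA cluster. The deletion was sequenced in the mouse line. TGF-β was given at 10 ng/ml for 24 h (WT-TGF and KO-TGF), and serum depletion (SD) was the control state of each genotype (WT-SD and KO-SD), with 3 libraries in each of the 4 groups. The MMC were primary cultures from pooled glomeruli, and the KO cultures came from a single mouse line, so the genotype cannot be told apart from the line and the cultures that carried it. The study calls the libraries of a group independent samples, and neither it nor the labels say whether they came from separate cultures or animals, so p-values measure the spread between these libraries, which may be technical.

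The libraries had 19898050 to 22827706 counts on genes. lncMGC is not among the genes counted, and the gene nearest to a check was Mirg, which covers the 3′ end of its transcript and lies outside the edited region. Mirg was at 2.14, 2.17 and 2.69 CPM (counts scaled to library size by TMM) in WT-SD and at 3.31, 4.30 and 3.39 CPM in KO-SD, and at 3.45, 3.56 and 3.75 CPM in WT-TGF and 3.64, 4.65 and 4.51 CPM in KO-TGF. In the edgeR fit of all genes with a count, Mirg was called higher in KO-SD (log2 fold change 0.68, adjusted p = 6.51e-05 in edgeR). No difference was called with TGF-β in that fit (0.26, adjusted p = 0.145 in edgeR). These counts do not check the deletion, and KO stands throughout for the libraries labelled KO. The study also measured lncMGC and Mirg in the KO cells by RT-qPCR, which is not reported here. Of 12 mesangial markers, 9 were tested, with Acta2, Tagln, Vim and Pdgfrb among the abundant ones, while Thy1 and Art3 had no more than 1 count in any library. Itga8 was under the limit, at 2.90 CPM in WT-SD, 1.61 CPM in WT-TGF, 3.05 CPM in KO-SD and 0.637 CPM in KO-TGF. Des was low in KO (0.529 CPM in KO-SD beside 7.68 CPM in WT-SD), and Serpine2 was lower (83.9 beside 278 CPM). The other 7 tested were higher in KO-SD.

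Chemokines bind G protein-coupled receptors on the target cell, and atypical receptors take ligands up without the usual signal. Many inflammatory chemokine genes are induced through NF-κB, and Cxcl9 and Cxcl10 also through interferon signalling. In the kidney, chemokines made by mesangial and tubular cells draw monocytes, T cells and neutrophils to the glomerulus and interstitium, and Cxcl12 is made by stromal and perivascular cells without an inflammatory stimulus. Cxcl16 and Cx3cl1 hold cells that carry their receptors at the membrane and are released by the sheddases Adam10 and Adam17.

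RefSeq promoter sequences (GRCm38.p6, the assembly of mm10) were matched for 5 of the 10 ligands, Cxcl1, Cxcl9, Cxcl10, Cxcl12 and Cx3cl1. The 250 bases before the annotated start are printed for 3 of them, 5′ to 3′ on the strand of the gene. Cxcl1 and Cxcl12 are shown because both fell with TGF-β by a large factor, and Cxcl10 because no change with TGF-β was called for it. Cxcl1 lies on the plus strand, and the window is chr5:90890995-90891244. Cxcl10 lies on the minus strand, and the window is chr5:92348890-92349139. Cxcl12 lies on the plus strand, and the window is chr6:117168285-117168534. Capitals mark matches to the NF-κB consensus and to the interferon-stimulated response element (ISRE) core.
Cxcl1: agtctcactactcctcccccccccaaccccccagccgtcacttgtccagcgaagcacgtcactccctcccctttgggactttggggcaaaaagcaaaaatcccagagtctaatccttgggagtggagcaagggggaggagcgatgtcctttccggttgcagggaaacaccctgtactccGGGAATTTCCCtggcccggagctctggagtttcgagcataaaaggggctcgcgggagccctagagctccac
Cxcl10: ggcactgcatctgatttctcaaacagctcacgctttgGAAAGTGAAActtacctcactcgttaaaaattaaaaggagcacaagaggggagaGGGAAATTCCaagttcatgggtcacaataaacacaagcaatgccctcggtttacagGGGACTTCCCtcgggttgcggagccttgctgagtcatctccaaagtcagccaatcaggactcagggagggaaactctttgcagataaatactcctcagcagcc
Cxcl12: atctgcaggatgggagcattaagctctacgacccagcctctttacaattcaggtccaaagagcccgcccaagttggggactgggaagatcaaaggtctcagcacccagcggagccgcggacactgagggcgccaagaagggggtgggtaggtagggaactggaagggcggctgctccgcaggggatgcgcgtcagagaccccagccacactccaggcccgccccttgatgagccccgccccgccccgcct

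Both strands were searched. The Cxcl1 window held the NF-κB consensus on either strand in 2 overlapping matches, whose first bases are 71 and 70 bases before the start. The Cxcl10 window held 2 NF-κB matches, 159 and 103 bases before the start, and the ISRE core, which was taken as 2 GAAA half-sites spaced by 2 bases, 213 bases before it. Cxcl10 also held an AP-1 site (TGANTCA), 74 bases before the start, which is left in lower case. The Cxcl12 window held none of the motifs searched, and those of Cxcl9 and Cx3cl1 held only a TATAAA box, 195 and 6 bases before the start. Among the same 250 bases of 32851 RefSeq promoters, 3.9% held the NF-κB consensus, 2.98% the ISRE core, 6.75% the AP-1 site and 12.4% TATAAA. The motifs were chosen with these promoters in view, and a match is a description of the letters, not a site that was shown to be bound.

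By position, the ligands fall on 4 chromosomes. On chromosome 5 lie Cxcl5 (90759298 to 90761625), Cxcl1 (90891245 to 90893121), Cxcl9 (92321331 to 92328079) and Cxcl10 (92346638 to 92348889), with Cxcl9 and Cxcl10 18.6 kb apart. On chromosome 11, Ccl2 (82035577 to 82037452) and Ccl7 (82045712 to 82047525) are 8.26 kb apart, Ccl5 (83525778 to 83530518) follows, and Cxcl16 lies apart from them (70454389 to 70459984). Cxcl12 is on chromosome 6 (117168535 to 117181368) and Cx3cl1 on chromosome 8 (94772180 to 94782427). The exons of Cxcl16 overlap those of Zmynd15 by 552 bases and those of Cxcl10 overlap those of Art3 by 133 bases, each on the other strand, and the counting used the strand.

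Per exon length, the ligands spanned from among the most abundant transcripts of the cells to none detected. In WT-SD, Ccl7 had 344 ± 12.8 RPKM (reads scaled by library size and exon length, mean ± SD, n = 3) and stood at rank 34 of the 11476 genes tested. Cxcl12 followed at 168 ± 4.73 RPKM, Ccl2 at 142 ± 5.50 RPKM and Cxcl1 at 95.1 ± 0.348 RPKM. In the middle of the order stood the membrane-bound pair, Cx3cl1 at 40.2 ± 0.923 RPKM and Cxcl16 at 28.6 ± 0.346 RPKM, ahead of Cxcl5 at 11.3 ± 1.11 RPKM. Ccl5 at 2.29 ± 0.476 RPKM and Cxcl10 at 1.24 ± 0.236 RPKM were near the limit of RPKM >1 in at least one library. Cxcl9 had no count in WT-SD and no more than 1 count in any of the 12 libraries, where a count of 0 allows up to 3 counts, or 0.135 to 0.159 CPM by group, and these allowances cover counting error only.

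**Figure D1:**
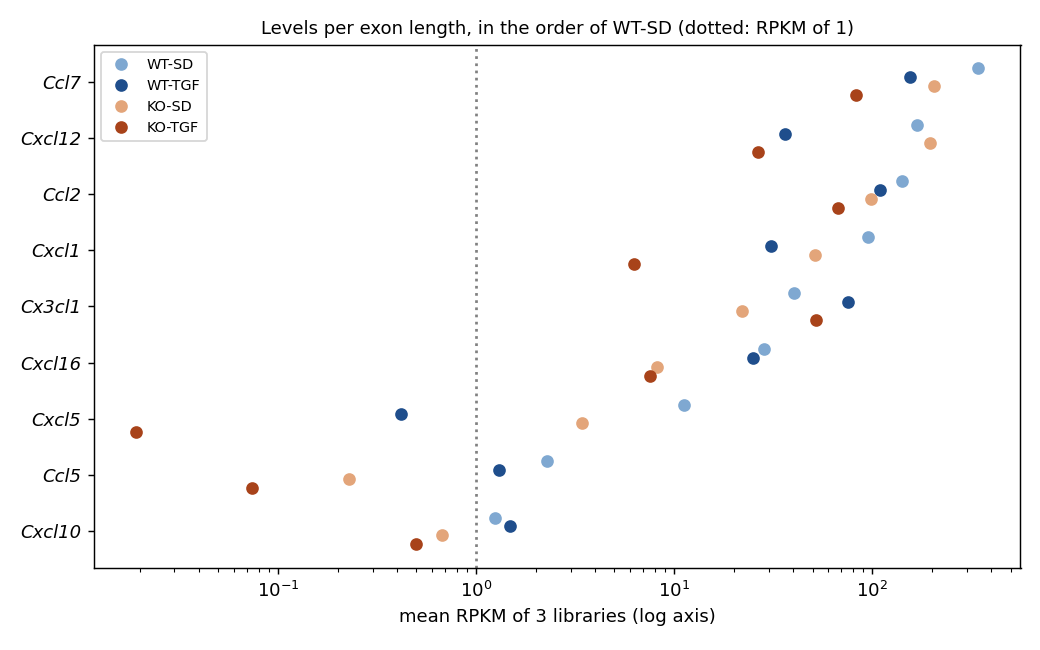
Mean RPKM of 3 libraries on a log axis for 9 ligands in each of the 4 groups, in the order of WT-SD; Cxcl9, with no count in WT-SD and KO-SD, is left out. Ccl7 leads in every group, and Cxcl5 spans the widest range, from 11.3 in WT-SD to 0.0191 in KO-TGF.

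The order changed between conditions. With TGF-β, Cx3cl1 stood at position 3 in both genotypes (75.8 ± 1.62 RPKM in WT-TGF and 52.4 ± 0.827 RPKM in KO-TGF) and Cxcl12 moved from position 2 to position 4. Neighbours in the order did not overlap between libraries except Cxcl10 and Ccl5 in WT-TGF, and Ccl5, Cxcl5 and Cxcl9 in KO-TGF. The summed level of the 10 ligands was 833 ± 21.6 RPKM in WT-SD, 436 ± 13.3 RPKM in WT-TGF, 587 ± 18.4 RPKM in KO-SD and 243 ± 6.35 RPKM in KO-TGF, with no overlap between groups. Cx3cl1 made up 4.83% ± 0.0690 of that sum in WT-SD, 17.4% ± 0.159 in WT-TGF, 3.75% ± 0.278 in KO-SD and 21.6% ± 0.230 in KO-TGF. The share of Cxcl12 went the other way, from 20.1% ± 0.300 in WT-SD to 8.34% ± 0.107 in WT-TGF and from 33.4% ± 0.747 in KO-SD to 10.9% ± 0.334 in KO-TGF. The length used for Cxcl12 (8176 bases) is the union of exons of all its isoforms, so its RPKM would be higher if a shorter isoform were the one made.

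Across the comparisons, 9 of the 10 ligands passed the limit on low expression and were tested, all but Cxcl9. In WT MMC, TGF-β lowered 7 of the 9 and raised 1, Cx3cl1, at FDR <5%, where 36.5% of all genes tested were lower and 35.9% higher. In KO MMC it lowered 6 and raised Cx3cl1, against 39% lower and 35% higher among all genes. Against WT, 8 ligands were lower in KO-SD and Cxcl12 was higher, where 25.3% of all genes were lower and 30.6% higher. In KO-TGF all 9 were lower than in WT-TGF and none was higher, against 27.9% and 27.2% of all genes. Ccl5 and Cxcl10 passed the limit only through WT libraries, with at most 0.302 and 0.755 RPKM in any KO library. The limit thus favoured lower calls in KO for these 2. Whether the genotypes responded differently to TGF-β was tested as an interaction, which was called for 6 ligands. The response was smaller in value (more negative) in KO for 5 of them, against 16.6% of all genes, and larger for Cx3cl1, against 8.77%. The count of 5 became 3 without any one of the 3 KO-TGF libraries.

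The median log2 fold change of the 9 ligands was -0.79 with TGF-β in WT and -1.32 in KO, beside -0.01 and -0.02 over all genes tested. Between the genotypes it was -0.89 in SD and -1.58 with TGF-β, beside 0.02 and -0.00 over all genes, and for the interaction -0.68 beside -0.03. With Ccl5 and Cxcl5 set at their bounds in KO-TGF, where both were at or under 3 counts in every library, the median was -0.56 with TGF-β in KO, -1.58 between the genotypes with TGF-β and -0.19 for the interaction. Calls rest on the quasi-likelihood test of edgeR, adjusted by Benjamini-Hochberg over all genes tested, and the comparisons share groups. An exact permutation test on 3 libraries a side can reach no p below 0.1. In such bulk samples, fewer cells of a type and less RNA per cell cannot be told apart.

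**Figure D2:**
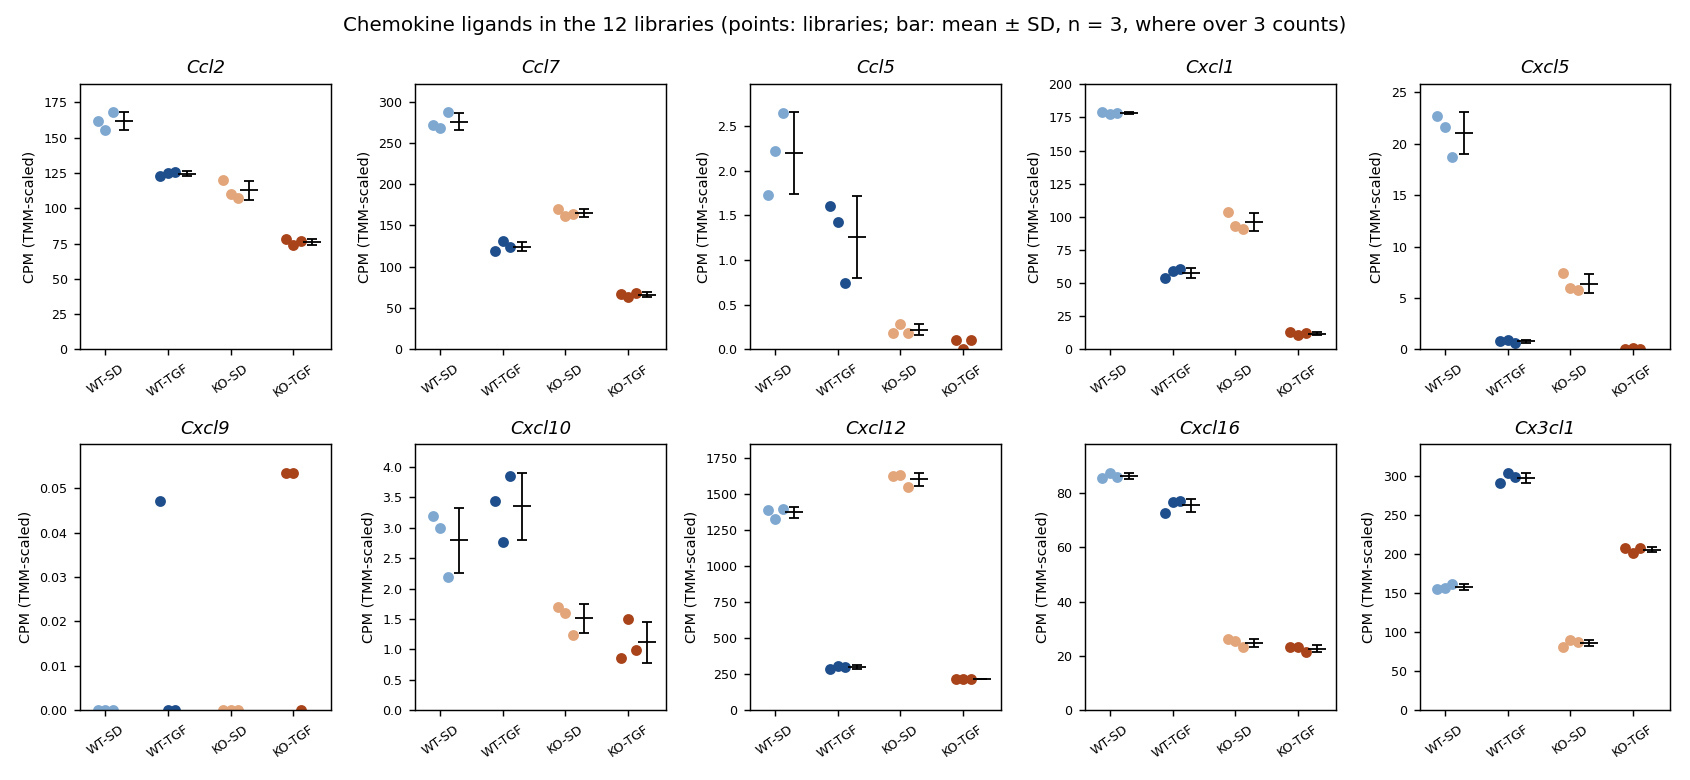
CPM of the 10 ligands in each of the 12 libraries (points) with the mean ± SD of 3 libraries (bars), on linear axes that start at 0; no bar is drawn where no library has over 3 counts. Cx3cl1 is higher with TGF-β in both genotypes, Cxcl16 differs mainly by genotype, and the Cxcl9 panel shows single counts.

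Ccl2 and Ccl7, which attract monocytes, were abundant in every group and fell with TGF-β in both genotypes. Ccl2 was at 162, 156 and 168 CPM in WT-SD, at 123, 125 and 126 CPM in WT-TGF, at 120, 110 and 108 CPM in KO-SD and at 78.1, 74.1 and 76.5 CPM in KO-TGF. No library overlapped between the groups of any comparison of Ccl2. The fall of Ccl2 with TGF-β was 1.30-fold in WT (log2 fold change -0.38, standard error (SE) 0.0356) and 1.48-fold in KO (-0.56, standard error 0.0394), and KO was lower 1.44-fold in SD and 1.64-fold with TGF-β (largest adjusted p of the 4 comparisons 7.81e-11, edgeR quasi-likelihood test, Benjamini-Hochberg adjusted).

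Ccl7, the neighbour of Ccl2 on chromosome 11, showed the same order of groups except that its KO-SD libraries stood above WT-TGF. It was at 271, 268 and 287 CPM in WT-SD, at 119, 131 and 123 CPM in WT-TGF, at 170, 162 and 164 CPM in KO-SD and at 67.5, 62.9 and 68.3 CPM in KO-TGF. The fall of Ccl7 with TGF-β was 2.21-fold in WT (log2 fold change -1.14, standard error 0.0336) and 2.49-fold in KO (-1.32, standard error 0.0382). KO was lower 1.67-fold in SD and 1.88-fold with TGF-β, and no libraries overlapped in these 4 comparisons (largest adjusted p 2.12e-18, edgeR quasi-likelihood test, Benjamini-Hochberg adjusted). The interaction was small for both genes, -0.19 for Ccl2 (adjusted p = 0.00866) and -0.17 for Ccl7 (adjusted p = 0.0114) in edgeR. The Ccl2 call was lost without KO-TGF replicate 2 (-0.13, adjusted p = 0.111) or 3 (-0.15, adjusted p = 0.0564). The Ccl7 call was lost without WT-TGF replicate 2 (-0.13, adjusted p = 0.0558), without KO-TGF replicate 1 (-0.15, adjusted p = 0.0546) or 2 (-0.10, adjusted p = 0.200), and in DESeq2 (-0.15, adjusted p = 0.0616).

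Ccl5, which attracts T cells and monocytes, was low in WT and close to the limit of detection in KO. Its counts were 38, 51 and 58 in WT-SD, 34, 32 and 15 in WT-TGF, 4, 6 and 4 in KO-SD and 2, 0 and 2 in KO-TGF. Every KO library was below every WT library. In SD, Ccl5 was 9.85-fold lower in KO (log2 fold change -3.30, SE 0.355, adjusted p = 2.39e-09), and with TGF-β it was at least 7.89-fold lower in KO (adjusted p = 1.73e-07, edgeR quasi-likelihood test, Benjamini-Hochberg adjusted), where the bound sets KO-TGF at a floor of 3 counts per library. With TGF-β it fell 1.73-fold in WT (-0.79, standard error 0.237, adjusted p = 0.0038 in edgeR). In KO the same comparison did not pass (adjusted p = 0.0925), with KO-TGF under the floor.

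Cxcl1, a ligand of Cxcr2 on neutrophils, fell with TGF-β in both genotypes and more steeply in KO. It was at 179, 178 and 178 CPM in WT-SD, at 53.5, 59.2 and 60.8 CPM in WT-TGF, at 104, 92.9 and 91.2 CPM in KO-SD and at 12.8, 10.6 and 12.1 CPM in KO-TGF. All 4 groups were separate. The fall of Cxcl1 was 3.08-fold in WT (log2 fold change -1.62, standard error 0.0451) and 8.13-fold in KO (-3.02, standard error 0.0632). The interaction was -1.40 (standard error 0.0824, adjusted p = 2.66e-14 in edgeR quasi-likelihood test, Benjamini-Hochberg adjusted), and it ran from -1.46 to -1.29 over the alternatives tried. KO was lower than WT 1.86-fold in SD and 4.90-fold with TGF-β.

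Cxcl5, the other neutrophil attractant here, had the steepest fall of the 10. Its counts were 499, 497 and 411 in WT-SD, 18, 20 and 12 in WT-TGF, 162, 123 and 126 in KO-SD and 0, 2 and 0 in KO-TGF. Cxcl5 fell 26.7-fold with TGF-β in WT (log2 fold change -4.74, standard error 0.155, adjusted p = 3.41e-22 in edgeR), the third-largest decrease among the 11476 genes. In KO the fall was at least 40.1-fold against the floor of 3 counts per library (adjusted p = 4.56e-17 in edgeR). KO was lower than WT 3.29-fold in SD (-1.72, SE 0.10, adjusted p = 2.22e-15) and at least 4.88-fold with TGF-β (adjusted p = 3.7e-06, both in edgeR). The interaction of Cxcl5, -2.54 with a standard error of 0.800 (adjusted p = 0.0177 in edgeR), rests on the 2 counts in KO-TGF. It was -5.32 without KO-TGF replicate 2, which held both counts, and it was not called without KO-TGF replicate 1 (-1.99, adjusted p = 0.0999) or 3 (-1.98, adjusted p = 0.105).

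Cxcl10, which draws activated T cells through Cxcr3, differed by genotype, and no change with TGF-β was called. Its counts were 70, 69 and 48 in WT-SD, 73, 62 and 78 in WT-TGF, 37, 33 and 27 in KO-SD and 16, 28 and 19 in KO-TGF. The treated and untreated libraries overlapped within each genotype, and no KO library reached a WT library. The log2 fold change with TGF-β was 0.26 (standard error 0.172, adjusted p = 0.184) in WT and -0.43 (standard error 0.263, adjusted p = 0.136) in KO, and their difference was -0.69 (standard error 0.314, adjusted p = 0.112, all in edgeR quasi-likelihood test, Benjamini-Hochberg adjusted). The KO value passed with scaling by library size alone (-0.64, adjusted p = 0.0282) and without KO-TGF replicate 2 (-0.68, adjusted p = 0.047). Cxcl10 was lower in KO 1.85-fold in SD (adjusted p = 0.000482) and 2.98-fold with TGF-β (adjusted p = 3.88e-07 in edgeR). Cxcl9, the other Cxcr3 ligand, had 1 count in WT-TGF replicate 1 and in KO-TGF replicates 1 and 2 and none elsewhere, and its expression was not detectable at this depth.

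Cxcl12, which retains hematopoietic and progenitor cells through Cxcr4, was the ligand with the most counts in WT-SD, KO-SD and KO-TGF and the only one higher in KO-SD than in WT-SD. It was at 1389, 1326 and 1396 CPM in WT-SD, at 284, 307 and 302 CPM in WT-TGF, at 1623, 1628 and 1549 CPM in KO-SD and at 218, 217 and 214 CPM in KO-TGF. The order of the genotypes was thus opposite in SD and with TGF-β, and all 4 groups were separate. Cxcl12 fell 4.61-fold with TGF-β in WT (log2 fold change -2.20, standard error 0.0282) and 7.39-fold in KO (-2.89, standard error 0.0293). KO was 1.17-fold higher in SD (0.22, SE 0.0263, adjusted p = 1.46e-08) and 1.37-fold lower with TGF-β (-0.46, standard error 0.0292, adjusted p = 1.76e-14), and the interaction was -0.68 (standard error 0.0392, adjusted p = 1.53e-14, all in edgeR quasi-likelihood test, Benjamini-Hochberg adjusted).

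Cxcl16, a membrane-bound chemokine and scavenger receptor, differed mainly by genotype. It was at 85.6, 87.5 and 85.8 CPM in WT-SD, at 72.9, 76.7 and 77.0 CPM in WT-TGF, at 26.1, 25.4 and 23.2 CPM in KO-SD and at 23.4, 23.3 and 21.4 CPM in KO-TGF. The lowest WT library was above every KO library by a wide margin. Cxcl16 was lower in KO 3.47-fold in SD (log2 fold change -1.79, standard error 0.0442) and 3.32-fold with TGF-β (-1.73, standard error 0.0472, largest adjusted p 1.04e-23 in edgeR). With TGF-β it fell 1.14-fold in WT (-0.19, standard error 0.0374, adjusted p = 3.67e-05 in edgeR). In KO the libraries overlapped (-0.13, standard error 0.0561, adjusted p = 0.0362 in edgeR), and this call held under 9 of 18 alternatives. The interaction was 0.06 (standard error 0.0675, adjusted p = 0.571 in edgeR).

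Cx3cl1 (fractalkine), which tethers monocytes and T cells that carry Cx3cr1, was the only ligand that rose with TGF-β in either genotype. It was at 155, 157 and 162 CPM in WT-SD, at 291, 304 and 299 CPM in WT-TGF, at 81.6, 89.7 and 87.3 CPM in KO-SD and at 208, 202 and 207 CPM in KO-TGF. No libraries overlapped, and KO-TGF stood above WT-SD. The rise of Cx3cl1 was 1.89-fold in WT (log2 fold change 0.92, standard error 0.0292) and 2.39-fold in KO (1.26, standard error 0.0320). KO was lower 1.83-fold in SD and 1.45-fold with TGF-β. The interaction was 0.34 (standard error 0.0434, adjusted p = 3.16e-07 in edgeR quasi-likelihood test, Benjamini-Hochberg adjusted).

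**Figure D3:**
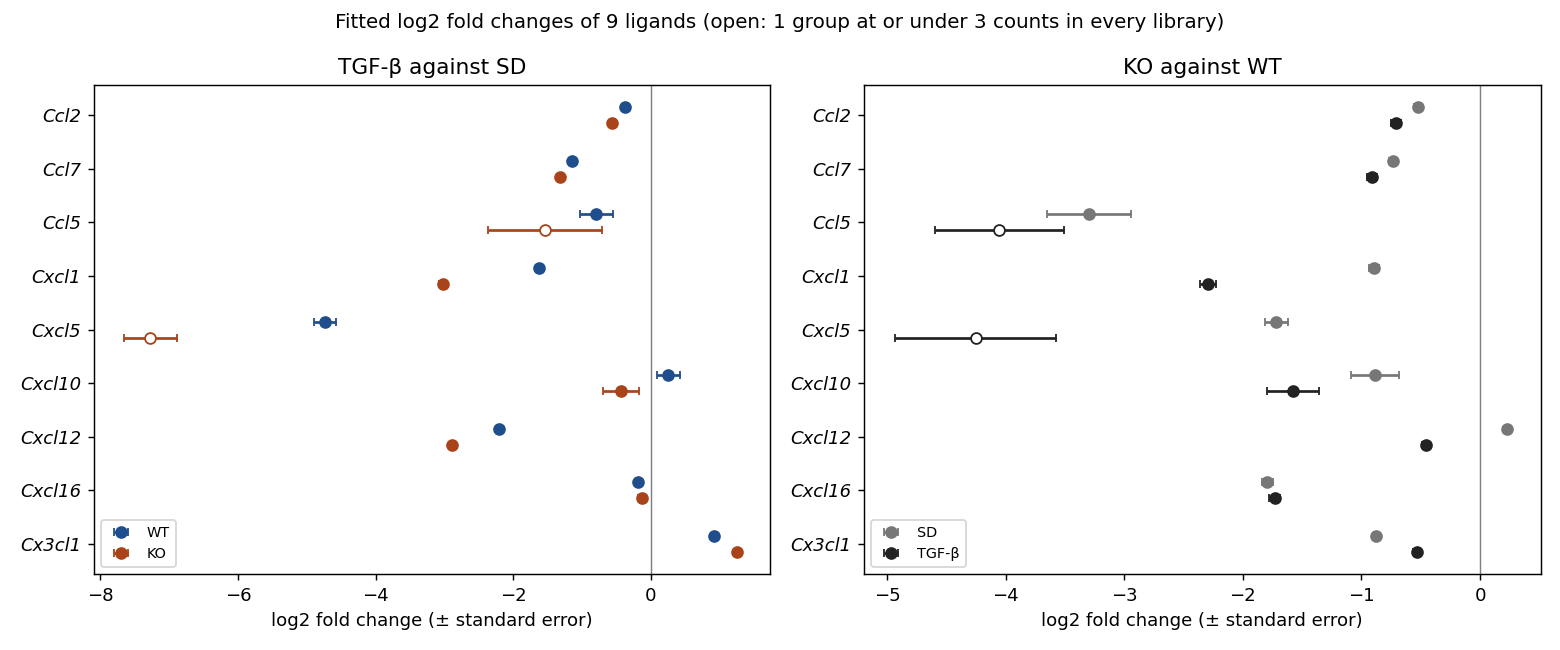
Fitted log2 fold changes with standard errors of the 9 tested ligands, for TGF-β against SD in WT and KO (left) and for KO against WT in SD and with TGF-β (right). Open points have 1 group at or under 3 counts in every library, so that their fitted value is no bound; on the left only Cx3cl1 is above 0 in both genotypes, and on the right only Cxcl12 in SD is above 0.

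The ligands followed different courses over the 12 libraries. Pearson's r of log2 CPM was 0.98 between Ccl7 and Cxcl1, 0.97 between Ccl7 and Cxcl5 and 0.94 between the neighbours Ccl2 and Ccl7. Cxcl16 was nearest to Ccl5 (0.95) and Cxcl10 (0.90), and Cx3cl1 was opposite to Cxcl12 (-0.81). These values describe 12 libraries in 4 groups, which share genotype and treatment, and carry no test.

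Among all genes tested, the course most like that of Cxcl12 was found in Hexa (0.999) and Iqsec1 (0.999), and that of Cxcl1 in Cebpd (0.998), a transcription factor gene of the acute-phase response, and Sema3d (0.998). For Ccl7 it was Cc2d2a (0.998) and the complement protease gene C1s1 (0.997), for Ccl2 Sdc4 (0.994) and Bcam (0.994), and for Cxcl5 Sytl2 (0.996) and Nrbp2 (0.995). Ccl5 was most like Plek (0.984), a gene of blood cells, and Pcdhga7 (0.978), Cxcl10 like Sytl5 (0.969) and Tbc1d9 (0.961), Cxcl16 like Hecw1 (0.997) and Prss12 (0.996), and Cx3cl1 like Fam189a1 (0.995) and Klhdc8a (0.994).

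Few receptors for these ligands were detected in the MMC cultures, and bulk counts do not tell which cells carried them. Of 19 chemokine receptors, 1 was tested, Cxcr6, and 7 had no count. Ccr2, the receptor of Ccl2 and Ccl7, Ccr1 and Ccr3, which bind Ccl5, Cxcr2, the receptor of Cxcl1 and Cxcl5, and Cxcr3 had no more than 2 counts in any library. Cxcr4, the receptor of Cxcl12, had 12, 8 and 4 counts in WT-TGF and no more than 1 count in any other library. Cx3cr1, the receptor of Cx3cl1, had 13, 15 and 6 counts in WT-TGF and no more than 3 in any other library.

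Cxcr6, the receptor of Cxcl16, was the exception and rose with TGF-β in both genotypes. Its counts were 3, 2 and 0 in WT-SD, 202, 208 and 205 in WT-TGF, 11, 10 and 13 in KO-SD and 189, 205 and 185 in KO-TGF. In KO the log2 fold change was 4.26 (standard error 0.176, adjusted p = 1.15e-19 in edgeR), and in WT the untreated libraries were at or under the floor (adjusted p = 5.76e-21 in edgeR). With TGF-β the genotypes were at 9.64 ± 0.436 CPM in WT and 10.3 ± 0.633 CPM in KO (SD, n = 3), and no difference was called (log2 fold change 0.09, adjusted p = 0.455 in edgeR). In SD every KO library had more Cxcr6 counts than any WT library (adjusted p = 6.43e-05 in edgeR), though few in number, while Cxcl16 was lower in KO there.

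Ackr3, the atypical receptor that takes up Cxcl12, fell with TGF-β as its ligand did. It was at 110, 109 and 108 CPM in WT-SD, at 22.2, 21.7 and 21.4 CPM in WT-TGF, at 56.9, 53.7 and 53.7 CPM in KO-SD and at 3.32, 2.72 and 3.15 CPM in KO-TGF. The log2 fold change with TGF-β was -2.32 (standard error 0.0411) in WT and -4.16 (standard error 0.0694) in KO, with an interaction of -1.84 (standard error 0.0966, adjusted p = 1.77e-15 in edgeR). Unlike Cxcl12, Ackr3 was lower in KO under serum depletion (-0.99, standard error 0.0353, adjusted p = 9.19e-21 in edgeR). Of the 7 atypical receptors and regulators, the other tested gene was Cmklr1, the chemerin receptor, which rose with TGF-β in WT (0.748 to 6.85 CPM) and in KO (1.53 to 5.96 CPM).

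The sheddases of Cxcl16 and Cx3cl1 differed little. Adam10 was at 277 CPM in WT-SD, 236 CPM in WT-TGF, 281 CPM in KO-SD and 240 CPM in KO-TGF, and Adam17 at 93.7, 71.1, 90.5 and 67.5 CPM in the same order. Both fell with TGF-β in either genotype (log2 fold changes -0.23 and -0.40 in WT, -0.23 and -0.42 in KO), and no difference between the genotypes was called (log2 fold changes between -0.08 and 0.03, smallest adjusted p = 0.0837 in edgeR). Among the other 5 proteases and regulators tested, of 8 listed in all, Mmp9 and Mmp14, which cleave chemokines and matrix, and Rhbdf1, which carries Adam17 to the surface, rose with TGF-β in both genotypes. Mmp9 was at 1.75 CPM in WT-TGF and at 9.34 CPM in KO-TGF (log2 fold change 2.41, adjusted p = 1.72e-14 in edgeR). Mmp2, which cleaves Ccl7 and Cxcl12, rose with TGF-β in both genotypes and was lower in KO by 0.58 in SD and 0.96 with TGF-β on the log2 scale.

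Of 31 other chemokine ligands, 10 had no count and 9 were tested. In WT, TGF-β raised 1, Ccl17, and lowered 7, or 11.1% and 77.8%, beside 35.9% and 36.5% of all genes. It raised 1 and lowered 6 in KO, or 11.1% and 66.7%, beside 35% and 39%. The 6 include Cxcl2, which was at or under 3 counts in every KO library, and Ccl3 had no count there. The median log2 fold change was -1.48 in WT and -1.33 in KO over the 8 and 7 ligands with a fold, with groups under the floor set at their bound. Ccl17, a ligand of Ccr4, was the gene that rose, in WT (0.964 to 6.02 CPM) and in KO (0.544 to 3.13 CPM). Ccl20, the ligand of Ccr6, fell in WT (4.50 to 0.126 CPM) and in KO (1.45 CPM to no count), and so did Cxcl15 (3.30 to 0.0932 CPM in WT, 4.97 to 0.107 CPM in KO). The interaction was called smaller for none of the 9, beside 16.6% of all genes, and larger for 1, Ccl9, beside 8.77%. Ccl9 fell in WT (log2 fold change -1.89), and no change was called in KO (0.67, adjusted p = 0.0711 in edgeR). Its interaction was 2.57 (adjusted p = 1.56e-05 in edgeR). Ccl3, Ccl20 and Cxcl2 had no count in KO-TGF, which limits this test.

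Between the genotypes, 6 of these 9 ligands were lower and 3 (Ccl8, Cxcl15 and Ppbp) higher in KO-SD, or 66.7% and 33.3%, beside 25.3% and 30.6% of all genes. In KO-TGF, 5 (Ccl3, Ccl17, Ccl20, Ccl27a and Cxcl2) were lower and none higher, beside 27.9% and 27.2%. Ccl3, Ccl9 and Cxcl2 passed the limit only through WT libraries and Ppbp only through KO-SD, which favoured the direction of their calls in SD. With genes under the floor at their bound, the medians were -0.83 and -0.92. Ccl8, Ccl9 and Ccl27a are named after their values were seen, and Ccl27a has near-identical copies, so its counts are uncertain. Ccl3, a macrophage product, had 69, 70 and 93 counts in WT-SD, 13, 42 and 25 in WT-TGF and none in the 6 KO libraries. Cxcl2, the closest relative of Cxcl1, had 57, 75 and 70 counts in WT-SD, 19, 33 and 16 in WT-TGF, 3, 2 and 2 in KO-SD and none in KO-TGF.

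Genes of NF-κB signalling and its feedback were lower in KO more often than higher. Of 16 genes, all tested, 12 were lower and 1 higher in KO-SD (median log2 fold change -0.31), or 75% and 6.25%, beside 25.3% and 30.6% of all genes. In KO-TGF 10 were lower and none higher (-0.21), or 62.5% lower, beside 27.9%. With TGF-β, 8 fell and 4 rose in WT (-0.14), or 50% and 25%, beside 36.5% and 35.9%. In KO 7 fell and 4 rose (-0.03), and the 43.8% that fell is near the 39% of all genes. Nfkbia, a feedback inhibitor and target of NF-κB, fell with TGF-β by 0.81 in WT and 0.64 in KO and was lower in KO-SD by 0.56, on the log2 scale. Nfkbie was lower in KO by 0.83 in SD and 1.02 with TGF-β, Tnip1 by 0.73 and 0.70, and Nfkbiz, a nuclear cofactor of NF-κB, by 0.27 and 0.57. Tnfaip3, another feedback inhibitor, rose with TGF-β in both genotypes (0.55 and 0.54), and Il1r1, the receptor of interleukin-1, fell (-1.40 and -1.26).

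Of 15 genes of interferon signalling, 13 were tested and the interferon genes Ifnb1 and Ifng had no count. With TGF-β, 9 fell and 3 rose in WT (median log2 fold change -0.43), or 69.2% and 23.1%, beside 36.5% and 35.9% of all genes. In KO 8 fell and 5 rose (-0.24), or 61.5% and 38.5%, beside 39% and 35%, so that the share that rose is near that of all genes. Against WT, 8 were lower and none higher in KO-SD (-0.11), or 61.5% lower beside 25.3%, and 7 were lower and 1 higher in KO-TGF (-0.13), or 53.8% and 7.69% beside 27.9% and 27.2%. On the log2 scale, Irf7 fell with TGF-β by 1.16 in WT and by 1.39 in KO, and Irf1, which induces Cxcl10, by 0.62 and 0.65, while no change of Cxcl10 was called.

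Markers of other cells moved with the genotype, beside the lower ligands in KO. Of 14 macrophage markers, 5 were tested, all of them lower in both KO comparisons (25.3% of all genes were lower in SD and 27.9% with TGF-β). Lyz2, Adgre1, Fcer1g and Cd68 had mean RPKM under 1 in both KO groups and passed the limit through WT libraries. The limit thus favoured lower calls in KO for them, and the shares of all genes are no measure of these calls. The summed level of the list was 39.2 to 42.9 CPM in WT-SD, 21.3 to 25.3 CPM in WT-TGF, 8.41 to 9.91 CPM in KO-SD and 2.62 to 2.94 CPM in KO-TGF. Adgre1, which defines mouse macrophages, had 167, 178 and 169 counts in WT-SD, 60, 123 and 72 in WT-TGF and none in the 6 KO libraries, and C1qa, C1qb, C1qc and Tyrobp also had no count in KO. Lyz2 was at 10.8, 13.4 and 11.9 CPM in WT-SD and at no more than 0.459 CPM in any KO library. Not all markers were lost: Cd14 was at 6.75 CPM in KO-SD beside 10.9 CPM in WT-SD, and at 1.33 CPM in KO-TGF beside 3.33 CPM in WT-TGF. Cd68 was at 1.15 CPM in KO-SD beside 2.17 CPM in WT-SD, and at 0.584 CPM in KO-TGF beside 1.77 CPM in WT-TGF. Macrophages make Ccl2, Ccl3, Ccl5, Cxcl2 and Cxcl16, and the part of these markers in the ligand levels was not tested.

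Of 8 podocyte markers, 5 were tested and all 5 were lower in both KO comparisons, beside 25.3% of all genes in SD and 27.9% with TGF-β. Their list summed to 484 to 492 CPM in WT-SD, 469 to 487 CPM in WT-TGF, 234 to 241 CPM in KO-SD and 214 to 230 CPM in KO-TGF. The defining marker Nphs1 had no more than 1 count in any library. Of 10 tubular markers, 2 were tested (Lrp2 and Cdh16) and both were lower in both KO comparisons, beside the same shares of all genes. Both had mean RPKM under 1 in the KO groups and passed the limit through WT libraries, which favoured lower calls in KO. The list summed to 68.3 to 75.1, 18.5 to 20.1, 14.4 to 15.9 and 7.03 to 7.49 CPM in the same order of groups. Slc12a1, under the limit, was higher in KO, at 1.25 beside 0.358 CPM in SD and 3.05 beside 0.842 CPM with TGF-β. Slc34a1, Umod and Aqp2 had no count. Of 10 glomerular endothelial markers, 2 were tested (Ehd3 and Flt1) and both were lower in both KO comparisons, again beside 25.3% and 27.9% of all genes. The list summed to 53.5 to 55.0, 60.9 to 66.9, 29.3 to 31.1 and 24.4 to 25.3 CPM, and the defining Pecam1 and Cdh5 were near 0. T cell and neutrophil markers (9 of 10 in the files, none tested) summed to 0 to 0.365 CPM, with Cd3e, Cd3d, Cd8a and Ly6g at 0. Mesangial markers summed to 4819 to 4998 CPM in WT-SD, 8990 to 9241 CPM in WT-TGF, 7640 to 7695 CPM in KO-SD and 14740 to 14897 CPM in KO-TGF, with 7 of 9 higher and 2 lower in KO-SD (77.8% and 22.2%, beside 30.6% and 25.3% of all genes) and 6 higher and 3 lower in KO-TGF (66.7% and 33.3%, beside 27.2% and 27.9%). Their part in the ligand levels was not tested either.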

How the data were processed

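The authors prepared stranded mRNA libraries (KAPA) and sequenced single-end reads. Per the labels and the study's methods, reads were aligned to mm10 with TopHat and counted per RefSeq gene with HTSeq, on the strand of the gene. The deposited values are raw counts, one per gene and library. The alignment and counting were not repeated. Reads outside genes (10.3% to 15.4% of a library), with several alignments (11.2% to 11.7%) or on overlapping genes (0.225% to 0.274%) were left out of library sizes and tests, so genes with near-identical copies are uncertain.

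Of 25230 genes, 18565 had a count. Exon unions of the GENCODE vM21 annotation gave RPKM, and the 11476 genes over 1 RPKM in some library were tested, the limit of the study's methods. Counts were scaled by TMM and fitted by the quasi-likelihood method of edgeR 4.0.16 under R 4.3.3, one mean per group and all 12 libraries, with Benjamini-Hochberg adjustment over all genes and calls at FDR <5%. A second fit, of all genes with counts, gave the values of genes under the limit. Of 12 replicate pairs, none agreed within sampling noise (chi-square per degree of freedom 1.33 to 5.20). The scripts were tested on simulated data.

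The ligands, lists and comparisons were chosen with earlier results of these data known. Of each list, genes past the limit were named by the largest absolute log2 fold change, up to 6 a list, plus the receptor of each ligand. Likeness is the Pearson correlation of log2 CPM (prior count 2). As alternatives, DESeq2 1.42.0, scaling to plain library size, no filter, a filter that asked 3 libraries for CPM >1, a replicate block, a fit of the compared groups only, and leaving out each of the 12 libraries were run. Single values of some listed genes are not reported here.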

Additional observations from a re-analysis of the deposited data

Results flagged for a closer look

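For 6 of the 9 ligands tested, the response to TGF-β differed between the genotypes in the test of the difference itself, edgeR's interaction of genotype and treatment with Benjamini-Hochberg adjustment. Among all 11476 genes tested, the response was called smaller (more negative) in KO for 16.6% and larger for 8.77%. The 1 larger response among the 9 ligands is near that share. The difference (KO minus WT, log2) was -2.54 for Cxcl5, -1.40 for Cxcl1, -0.68 for Cxcl12, -0.19 for Ccl2 and -0.17 for Ccl7, all of which fell more steeply in KO, and 0.34 for Cx3cl1, which rose more steeply in KO. For Cxcl1, Cxcl12 and Cx3cl1 the call held under all 17 alternatives. The Cxcl5 value is fitted with KO-TGF at or under 3 counts in every library, ran from -5.32 to -1.98 over the alternatives and is no bound. For Cxcl5 and Ccl2 the call held under 15 of 17, and for Ccl7 under 13 of 17. No group had enough libraries for a search for single libraries far from the others.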

How the results depend on the processing

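No ligand changed direction under any alternative that kept it in the test. Of the alternative values of log2 fold changes, 779 kept their side of the threshold, 17 lost a call and 2 gained one (Cxcl10 with TGF-β in KO). Of the 17, 9 were Cxcl16 with TGF-β in KO (log2 fold change -0.13 to -0.07 in those settings), and 8 were the interactions of Ccl2, Ccl7 and Cxcl5. The number of ligands with a smaller response in KO was 5 and ranged from 3 to 5 when single libraries were left out, with 3 without any one KO-TGF library. Other counts of ligands stayed within 1.5 times. Same-numbered libraries showed no strong shared deviation (correlations -0.0283 to 0.0868, 0 of 18 over 0.1), and the labels do not say whether they were paired. With the replicate block, 7 ligands were lower and 1 higher with TGF-β in WT, 6 and 1 in KO, 8 and 1 in KO-SD against WT-SD, 9 and 0 in KO-TGF against WT-TGF, and 5 responses were smaller and 1 larger. Scaling by library size alone moved the median log2 fold change of all genes to -0.16 with TGF-β in WT, -0.23 in KO and -0.12 between KO-TGF and WT-TGF, and the ligands moved with it. The fit of only the compared groups was not run for the interaction. Counts of 0 to 6 in KO limit Ccl5, and counts of 0 to 2 in KO-TGF limit Cxcl5. Fitted fold changes that use those groups depend on single reads (Cxcl5 with TGF-β in KO ran from -10.07 to -6.73).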

Other observations

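Dpp4, a peptidase that trims and inactivates Cxcl12 and Cxcl10, was under the expression limit and was singled out after its values were seen. It was at 2.94 CPM in WT-SD, 0.174 CPM in WT-TGF, 1.31 CPM in KO-SD and 0.0712 CPM in KO-TGF (means of 3 libraries), and a relation to either ligand was not tested. Named likewise after their values were seen, Ccrl2, a non-signalling chemerin receptor also under the limit, was at 1.06, 0.404, 0.641 and 0.159 CPM in the same order, and Ccl4, the neighbour and relative of Ccl3, had 7 to 13 counts in WT-SD, 2 in each WT-TGF library and none in KO.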
